A study of Canis lupus familiaris with 20 samples.

Results

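COL2A1, the gene of the type II collagen alpha chain, was followed through RNA sequencing of vertebral cartilage from young dogs. It is 1 of 24580 genes in the count table and was picked by its identifier, ENSCAFG00000009059, on chromosome 27 from 6756994 to 6787846 of CanFam3.1, forward strand. The table holds no gene symbols, so the name COL2A1 rests on this position. Epiphyseal cartilage beside the growth plate was taken from both ends of 1 thoracic vertebra (T12) and combined per animal, giving 1 library per dog. The dogs came from a naturally occurring model of mucopolysaccharidosis VII (MPS VII), which carries a missense change, R166H, in GUSB. This is an inherited storage disease in which a lysosomal enzyme that helps to break down glycosaminoglycans is deficient. Affected (MPS VII) dogs were homozygous for the change. Controls were litter mates that carried it in heterozygous form, so every dog had at least a single altered copy. Each genotype was sampled at postnatal day 9 and at postnatal day 14, with 5 dogs per group and 20 in all. The labels used here give neither litter nor sex of each dog. Replicate numbers 1 to 5 were assigned here, in the order of the samples within each group.

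Type II collagen is the main fibril-forming collagen of cartilage. It is made by chondrocytes as a precursor whose identical chains wind into a triple helix, and its fibrils are built together with the less abundant collagens XI and IX. In a cartilage template that turns into bone, chondrocytes enlarge, COL2A1 transcripts decline, and the matrix is calcified and replaced. Its transcript is therefore a usual marker of chondrocytes that are still laying down cartilage.

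The gene model of the table was used to check the name. ENSCAFG00000009059 has 54 exons with 5042 bases in all, spread over 30853 bases. The single RefSeq gene named COL2A1 in another dog assembly (UU_Cfam_GSD_1.0) spans 30753 bases, also on chromosome 27. Fibrillar collagen genes are known for exons of 54 bases, or of lengths close to this unit, each coding for a whole number of Gly-X-Y triplets of the helix. In the model of COL2A1, 23 exons were exactly 54 bases long, 8 were 108 bases, 5 were 45 bases, 4 were 99 bases and 1 was 162 bases. These 5 lengths accounted for 41 of its 54 exons. Of all 204671 exons in the table, 0.614% were 54 bases long, against 42.6% of the exons of COL2A1. A length divisible by 9, that is a whole number of triplets, was found in 77.8% of its exons and in 14.2% of all exons. At least 20 exons of 54 bases were also found in 11 other genes, so this pattern cannot single out COL2A1 among them. The name still rests on position.

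**Figure D1:**
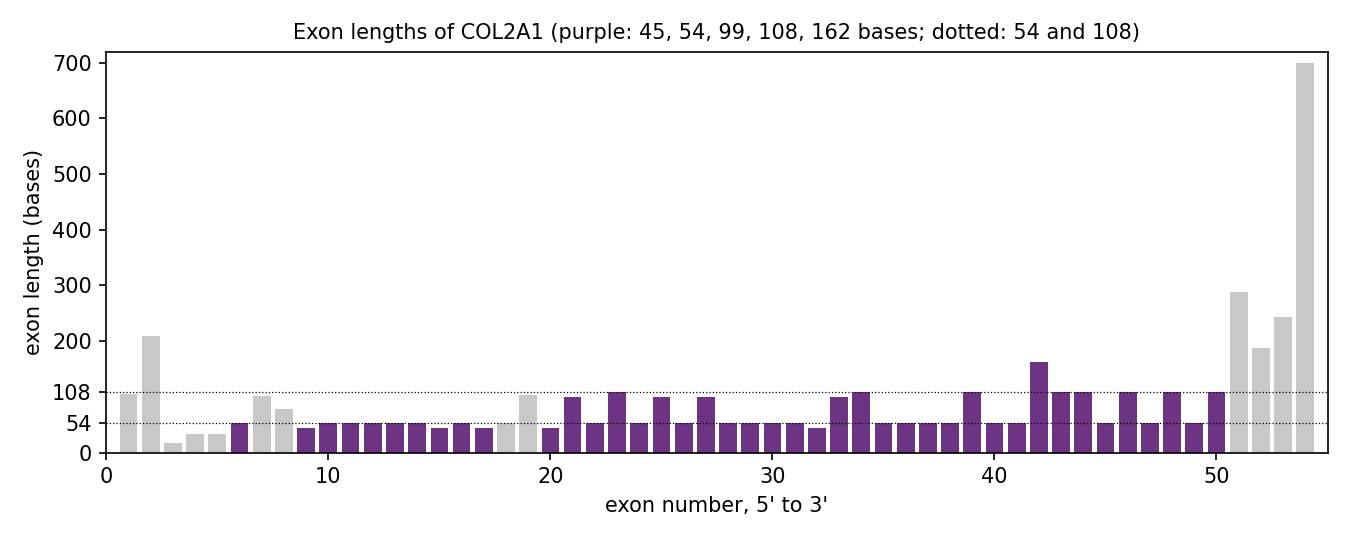
Length in bases of each of the 54 exons of COL2A1, in order from the 5′ to the 3′ end, with purple bars for exons of 45, 54, 99, 108 or 162 bases. The unit fills most of the gene between its ends, while the first exon (105 bases) and the last exon (699 bases) stand outside it.

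COL2A1 held more counts than any other gene in 20 of 20 libraries. Over all libraries together it took 110762759 of 440081041 counts, or 25.2%. The second place belonged in 19 libraries to a gene on chromosome 6 (47425307 to 47622225), which took 2.79% to 4.84% of counts there. COL2A1 stood 1.99 to 9.57 times above the second gene by counts. Per base of exon, which allows genes of different length to be set side by side, it was first in 19 of 20 libraries. The exception was MPS VII day 9 replicate 3, where a gene on chromosome 4 (57659350 to 57680981) took 5.22% of length-scaled counts and COL2A1 2.63%.

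In control dogs of day 9, COL2A1 took 25.7%, 33.1%, 32.2%, 35.1% and 33.2% of all counts in replicates 1 to 5. In affected dogs of day 9 the shares were 30.2%, 25.4%, 7.48%, 33.2% and 31.6%. At day 14 they were 27.6%, 23.8%, 16.3%, 22.6% and 19.8% in affected dogs. In controls of day 14 they were 10.4%, 19.1%, 24.7%, 12.9% and 20.5%. All 5 controls of day 14 lay below all 5 controls of day 9, and the ranges of every other pair of groups overlapped. Counting error was small beside this spread: the 95% Wilson interval of a share was at most 0.0205 percentage points to either side, which covers counting error only. That interval treats every count as a separate draw, so it is too narrow if both mates of a pair were counted.

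The level scaled for library composition gave the same order of groups. Scaling used the trimmed mean of M values (TMM), and levels are in CPM, the counts a gene would hold in a scaled library of 1000000. Control day 9 held 251047, 383350, 384630, 462148 and 384891 CPM in replicates 1 to 5, with a mean of 373213 ± 76163 (SD, n = 5). Affected day 9 held 329598, 259738, 63345, 423427 and 351792 CPM, with a mean of 285580 ± 137277 (SD, n = 5). Replicate 3 lay far below the next library of that group, and without it the mean was 341138 ± 67439 CPM (SD, n = 4). Affected day 14 held 284596, 224258, 143228, 217187 and 186192 CPM, with a mean of 211092 ± 52055 (SD, n = 5). Control day 14 held 80690, 164675, 238239, 104358 and 184299 CPM, with a mean of 154452 ± 63178 (SD, n = 5). The groups thus ran from control day 9 through affected day 9 and affected day 14 down to control day 14. Within a group the highest library exceeded the lowest by 1.84-fold in control day 9, 1.99-fold in affected day 14, 2.95-fold in control day 14 and 6.68-fold in affected day 9.

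**Figure D2:**
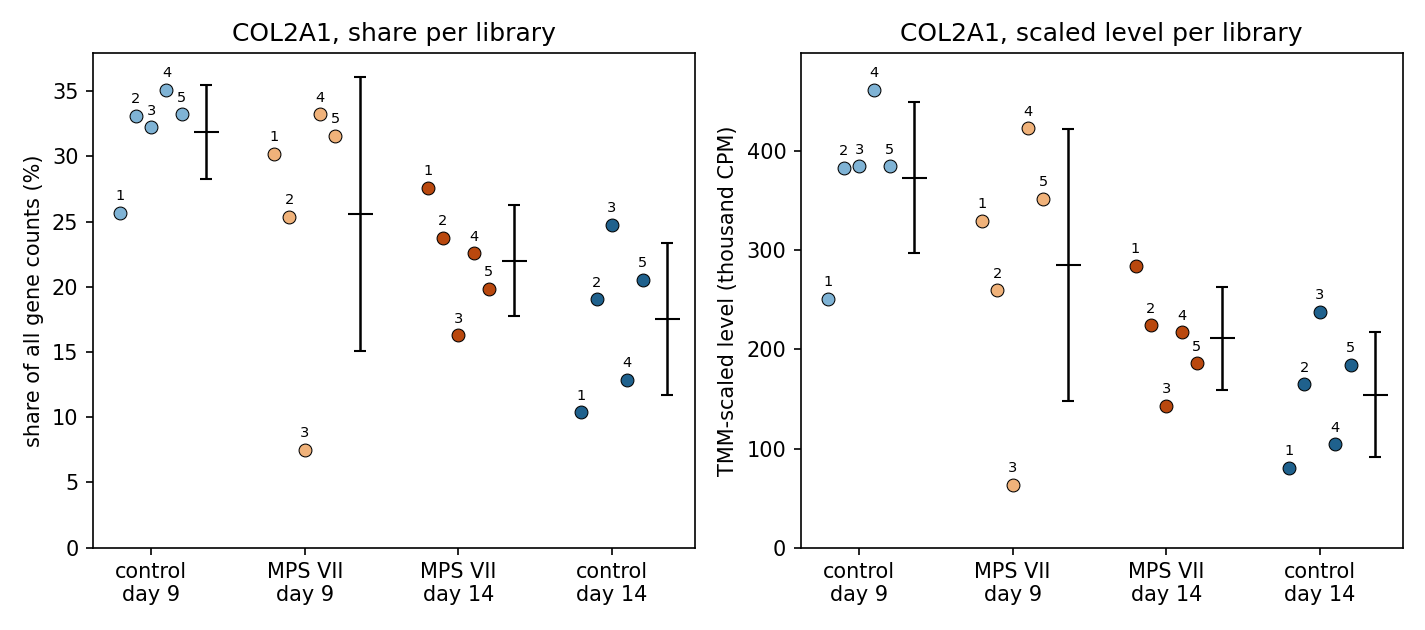
COL2A1 per library as a share of all gene counts in percent (left) and as TMM-scaled level in CPM (right, axis in units of 1000), with the replicate number above each point and mean ± SD of 5 libraries beside each group. The 5 control libraries lay at 25.7% to 35.1% at day 9 and at 10.4% to 24.7% at day 14, while MPS VII day 9 replicate 3 stood alone at 7.48%.

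The clearest difference was between the ages of control dogs. From day 9 to day 14 the level of COL2A1 fell by 1.27 ± 0.38 on the log2 scale (SE; 95% interval -2.07 to -0.48), to 0.414 times its day 9 level (edgeR quasi-likelihood test, adjusted p = 0.0110). All 25 pairs of a day 14 and a day 9 control were lower at day 14. Of all 14550 tested genes, 42.5% passed the same test in this comparison, 20.7% as lower, and 38.4% had groups that did not overlap. A fold change below that of COL2A1 was found in 3.13% of tested genes, while 29.0% had a smaller p. The square root of its dispersion, a measure of relative spread between dogs of a group, was 0.378 against a median of 0.200 over tested genes, and 82.8% of tested genes had a lower dispersion. The share itself fell by 14.4 percentage points, from 31.9% ± 3.62 to 17.5% ± 5.83 (exact two-sided permutation p = 0.00794, the smallest that 5 against 5 allows, adjusted p = 0.0317 over 4 share comparisons). Counted per base of exon the share went from 14.7% ± 2.07 to 7.69% ± 2.97, the groups overlapped, and the adjusted p was 0.0635 in the exact permutation test.

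Other properties of the control libraries moved with age too. The mitochondrial share of counts was 2.60% ± 0.449 at day 9 and 3.80% ± 0.854 at day 14 (SD, n = 5 each). The lowest COL2A1 library of day 14, replicate 1, also had the highest mitochondrial share, 5.07%. Total counts were 26163563 ± 2080575 at day 9 and 18458583 ± 1557531 at day 14. Their part in the fall of COL2A1 was not tested, and a sequencing batch that went with age cannot be told apart from age. In tissue sequenced in bulk, fewer cells that express a gene and less RNA per cell cannot be told apart either.

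In affected dogs the fall with age did not pass the test. The log2 fold change was -0.44 ± 0.38 (SE; 95% interval -1.22 to 0.35; edgeR adjusted p = 0.417), where 22.7% of tested genes passed. Day 14 was lower in 19 of 25 pairs of libraries. This value moved with single libraries of day 9: it was -0.67 without replicate 3 (edgeR adjusted p = 0.0563) and -0.25 without replicate 4 (edgeR adjusted p = 0.694). The share went from 25.6% ± 10.5 to 22.002% ± 4.25 (exact two-sided permutation p = 0.524, adjusted p = 0.524). That change of -3.56 percentage points was -8.08 without replicate 3 of day 9 (exact permutation adjusted p = 0.0635). It was -1.65 and -2.06 without replicates 4 and 5 of day 9, and -2.13 without replicate 3 of day 14. The age changes of affected dogs and controls differed by 0.84 ± 0.54 on the log2 scale (95% interval -0.28 to 1.95; edgeR adjusted p = 0.429), with 3.26% of tested genes past the threshold. A smaller fall of COL2A1 in affected dogs was therefore not shown, and the interval leaves room both for an equal fall and for a difference of the size of the whole control change.

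Between genotypes COL2A1 lay lower in affected dogs at day 9 and higher at day 14, but neither difference passed the test. At day 9 the log2 fold change was -0.39 ± 0.38 (95% interval -1.17 to 0.4; edgeR adjusted p = 0.576), where 8.38% of tested genes passed. Without MPS VII day 9 replicate 3 it was -0.13. At day 14 it was 0.45 ± 0.38 (95% interval -0.34 to 1.24; edgeR adjusted p = 0.443), where 22% of tested genes passed. The affected library was the lower in 6 of 25 pairs at day 14 and in 18 of 25 pairs at day 9. Without replicate 1 of control day 14 the day 14 value was 0.29. For the share, the exact two-sided permutation p was 0.206 at both ages, with an adjusted p of 0.275. The differences in share were -6.31 percentage points at day 9 (-1.79 without MPS VII day 9 replicate 3) and 4.48 at day 14 (2.70 without control day 14 replicate 1). These 3 comparisons, affected against control at each age and the ages of affected dogs, are also those between neighbours in the order of the groups, so no difference between neighbours in that order passed the test. Groups that do not overlap were found in 8.09% of tested genes between genotypes at day 9, 19.1% between genotypes at day 14 and 11.5% between the ages of affected dogs, and COL2A1 was not among them.

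Affected dogs of day 14 set against the controls of day 9 gave a log2 fold change of -0.82 ± 0.38 (95% interval -1.61 to -0.03; edgeR adjusted p = 0.104), where 31.9% of tested genes passed and 25.2% had groups that did not overlap. The affected library was lower in 24 of 25 pairs. The call depended on the estimate of spread: with only these 10 libraries in the fit the edgeR adjusted p was 0.00601, and it was 0.0119 without MPS VII day 9 replicate 3, a library of neither group.

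**Figure D3:**
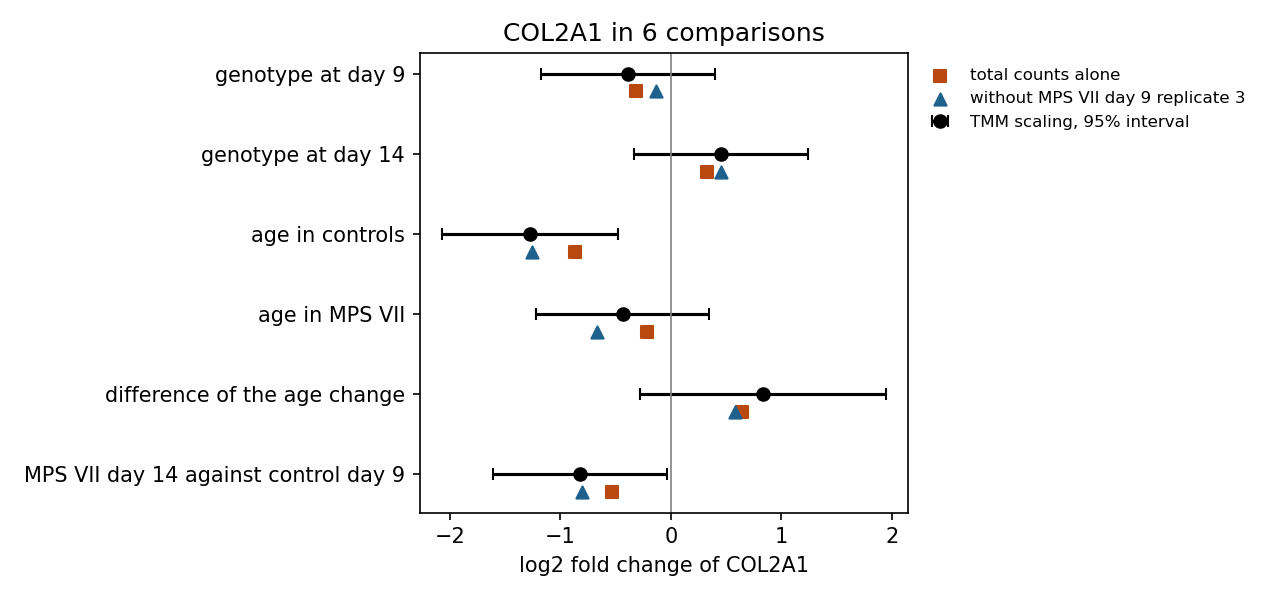
Log2 fold change of COL2A1 in 6 comparisons (black points, with 95% intervals, TMM scaling over 20 libraries), with the value under total-count scaling (squares) and without MPS VII day 9 replicate 3 (triangles). Only the fall with age in controls, at -1.27, passed the threshold after adjustment over all genes. The comparison of affected dogs with controls lies at -0.39 at day 9 and at 0.45 at day 14.

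A gene of this size changes the make-up of the whole library. At control day 9, 13 to 60 genes were enough to reach 50% of all counts, at affected day 9 15 to 220, at affected day 14 42 to 173 and at control day 14 71 to 282. With COL2A1 left out, the numbers were 190 to 310, 195 to 306, 310 to 388 and 358 to 451. The other 19 of the 20 most abundant genes took a nearly constant share of all counts together, 17.2% ± 0.299 in control day 9, 16.9% ± 1.01 in affected day 9, 17.0% ± 0.486 in affected day 14 and 16.7% ± 0.325 in control day 14. In controls the share of COL2A1 fell with age, so these 19 took less of the counts outside it at day 14. Of the 20, 11 fell and 2 rose with age in controls by the edgeR test, against 20.7% and 21.8% of all tested genes, and COL2A1 had the fourth lowest fold change of them.

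Raw totals differed between the ages and can be split into COL2A1 and all other genes. The split is a description of raw counts, and what set the depth of a library was not tested. Between the ages of controls the mean total fell by 7704980 counts, and that of COL2A1 fell by 5072113, which is 65.8% of the difference. All other genes together fell by 14.7%, from 17867538 to 15234671 counts per library. In affected dogs the total fell by 5150555 counts, 40.1% of them COL2A1. TMM factors were 0.870 ± 0.0959 in control day 9 and 1.17 ± 0.0979 in control day 14, and the lowest factor (0.760) belonged to the library with the highest share. Scaled by total counts alone, the fall in controls was 0.86 on the log2 scale (edgeR adjusted p = 0.0219). Under that scaling the median over all tested genes stood at 0.37, against -0.06 under TMM.

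**Figure D4:**
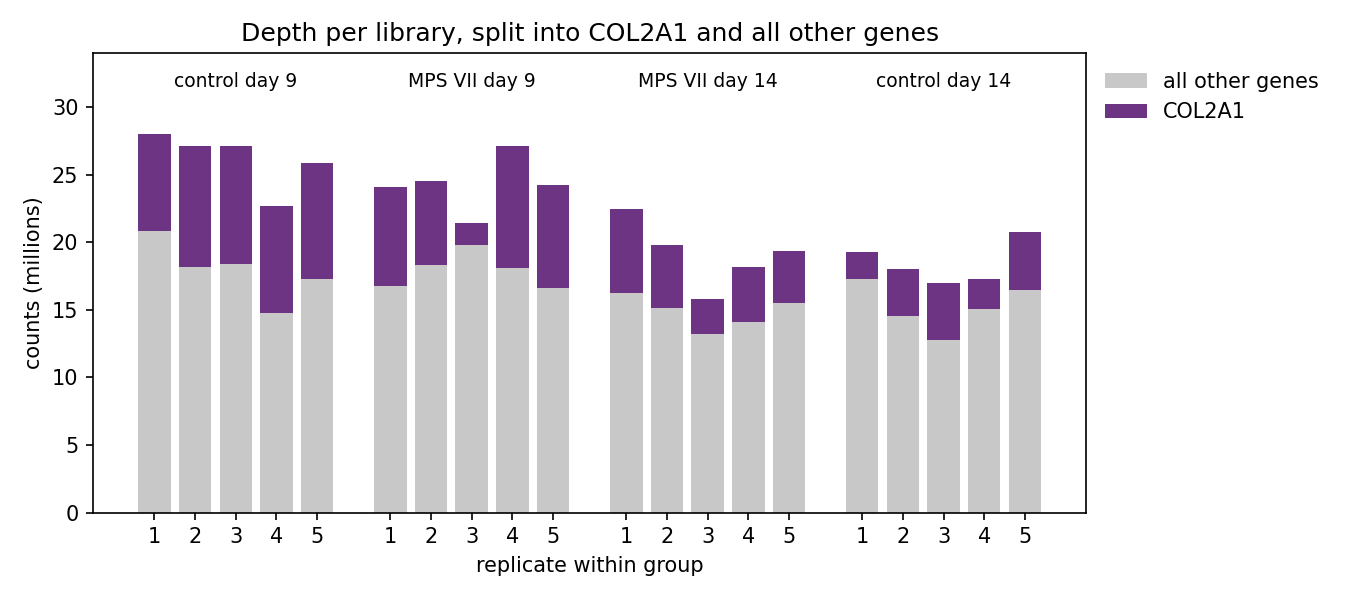
Counts per library (axis in units of 1000000), split into COL2A1 (purple) and all other genes (grey), for 5 libraries in each of 4 groups. Counts of all other genes ran from 12774073 to 20829714, while COL2A1 ran from 1603278 to 9005336, lowest in MPS VII day 9 replicate 3.

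The 54-base exon pattern also marks other genes of the table, which can be compared with COL2A1 without names. At least 20 exons of 54 bases were found in 12 genes including COL2A1, with 21 to 32 such exons each. The next gene had 14, and 96.8% of genes had none. This group was chosen after its values had been seen, so it is described and not tested as a group. The 12 genes cover a wide range of levels. In control day 9 the means per kilobase of exon (RPKM on the TMM-scaled libraries) were 74021 ± 15106 for COL2A1, 6717 for the chromosome 6 gene from 47425307, 1935 for a chromosome 12 gene from 2626822, and 0.0430 for the lowest, on chromosome 13 from 33735489. COL2A1 made up 85.6% to 87.5% of the length-scaled counts of the 12 genes in control day 9, 71.6% to 87.9% in affected day 9, 79.1% to 84.6% in affected day 14 and 68.3% to 86.1% in control day 14.

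Of the 11 other genes, 10 would pass the filter on low counts without any single group. The gene on chromosome 13 passed only through control day 14, the group where it was high (241 to 2316 counts, against 0 to 32 in every other library), so it had to differ there and enters no count. With age in controls, 3 of the 10 fell, 1 rose and 6 did not pass the edgeR test, against 20.7% and 21.8% of all tested genes that fell and rose. The 3 that fell were the gene on chromosome 12 (-1.34 ± 0.31, SE; edgeR adjusted p = 0.00174), the one on chromosome 6 from 47425307 (-0.85 ± 0.21) and one on chromosome 11 from 68412813 (-1.01 ± 0.38). The gene that rose was scarce: another on chromosome 6, from 61930848, went from 3.84 ± 1.10 to 22.6 ± 16.9 CPM (SD, n = 5 each; log2 fold change 2.56 ± 0.39, edgeR adjusted p = 3.59e-05). At day 14 this gene was lower in affected dogs than in controls (-3.47 ± 0.41), 1 of 10 where 10.7% of all genes were lower and 11.3% higher. Its age change was also the more negative in affected dogs by the edgeR test of the difference, 1 of 10 where 2.43% of all genes were lower and 0.825% higher. The edgeR adjusted p of the 10 genes was at least 0.0901 between genotypes at day 9, where 2.21% of all genes were lower and 6.18% higher. It was at least 0.0741 with age in affected dogs, where 9.92% of all genes fell and 12.7% rose.

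Of the genes of the pattern above 10 CPM, the one on chromosome 12 was most like COL2A1 over the libraries. Its levels were 8723, 13815, 13248, 14521 and 12185 CPM in control day 9 replicates 1 to 5, and 3216, 5456, 5930, 3936 and 6095 CPM in control day 14. In affected dogs they were 13830, 10472, 3836, 18841 and 11852 CPM at day 9 and 12488, 8439, 5283, 7032 and 6333 CPM at day 14. As with COL2A1, replicate 3 was the lowest of affected day 9 and replicate 1 the lowest of control day 14. Per base of exon, COL2A1 exceeded it 38.2 ± 2.32 times in control day 9 and 39.0 ± 7.55 times in control day 14, with ranges of 35.5 to 40.8 and 32.1 to 51.5, while both levels fell. In affected dogs the ratio was 30.1 ± 6.07 at day 9 and 35.0 ± 3.96 at day 14, with 21.2 in replicate 3 of day 9.

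Ratios within a library were computed to the 7 most abundant of the other genes, and 4 of the 7 were lower in every control of day 14 than in any of day 9. The same held for 48.2% of all other tested genes, and COL2A1 itself did not overlap between these groups, so nothing is read from the count. Per base of exon, COL2A1 exceeded a gene on chromosome 14 from 19883733 by 62.3 to 379 times in control day 9 and by 7.57 to 58.2 times in control day 14. For a gene on chromosome 9 from 26183852 the ranges were 74.5 to 392 and 8.08 to 55.2. For 2 genes on chromosome 36 they were 84.1 to 159 and 59.4 to 81.1 (from 30487822), and 449 to 1124 and 86.3 to 298 (from 30537639). Replicates 1 and 4 of control day 14, the libraries with the least COL2A1 in that group, had the lowest ratios to the chromosome 14 gene, 9.95 and 7.57. COL2A1 is the numerator, so low ratios are favoured in these libraries. They also held the most of the chromosome 14 gene in that group, 9243 and 15727 CPM (others 4669 to 5971). In affected dogs the ratios to the chromosome 14 gene were 31.6 to 436 at day 9 and 40.1 to 87.9 at day 14. Those to the chromosome 9 gene were 39.8 to 531 and 55.3 to 123, so the ages overlapped for both. Neither gene passed the test with age in controls (log2 fold changes 0.86 ± 0.53 and 0.91 ± 0.56; edgeR adjusted p = 0.198 for both).

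**Figure D5:**
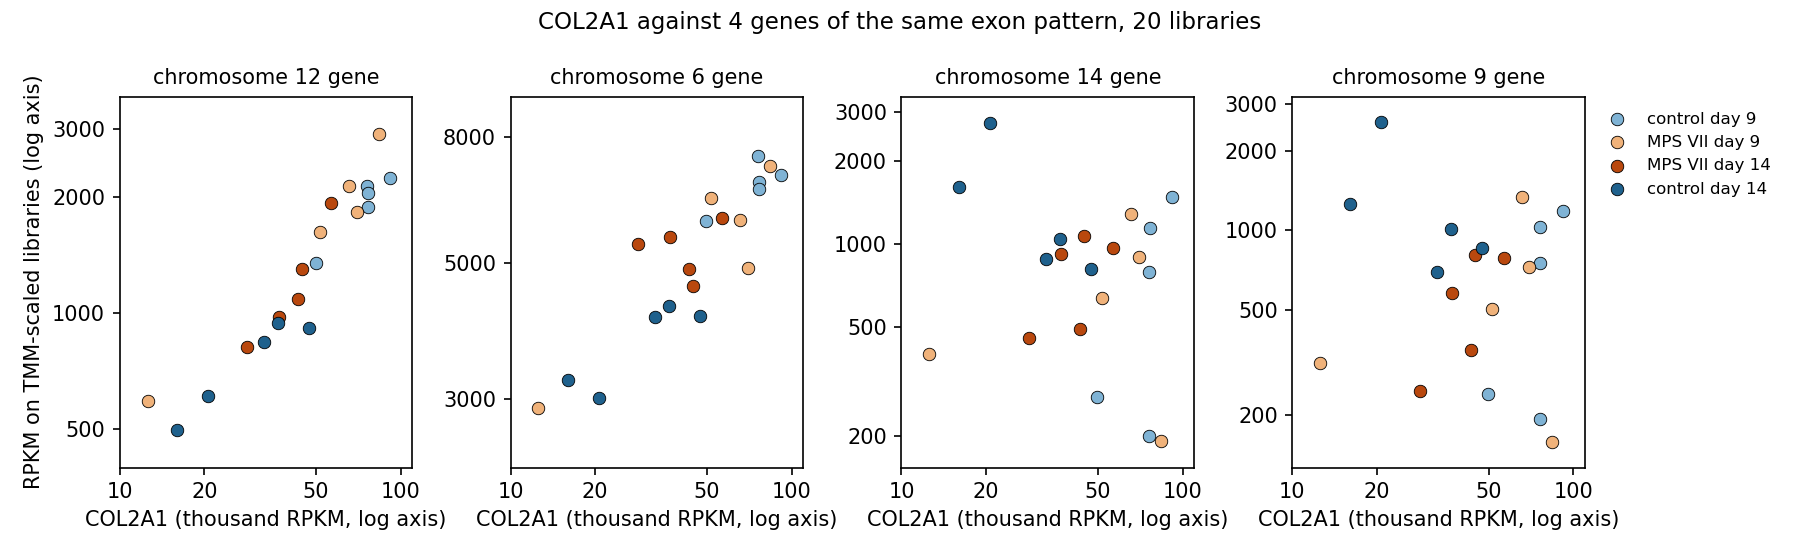
Level per kilobase of exon of COL2A1 (x axis, RPKM in units of 1000) and of 4 genes with the same exon pattern (y axis), on log axes, 1 point per library, coloured by group. The chromosome 12 gene follows COL2A1 through all 20 libraries (Pearson r of 0.947 on log2 CPM), while the genes on chromosomes 14 and 9 were not ordered by it (r of -0.21 and -0.13).

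Likeness of pattern was measured over the 8142 other genes with a mean of at least 10 CPM, as the Pearson correlation of log2 CPM with COL2A1 over 20 libraries. All points share their library and its scaling, and the groups enter the value, so these are descriptions. The median over genes was -0.01, and 50 genes reached 0.9. The highest was a gene on chromosome 16 (15274956 to 15279024) with 0.959, which was 0.929 without the 2 libraries farthest from the median of COL2A1. Next came a gene on chromosome 38 (103799 to 112448) with 0.953, and 0.941 without those libraries. It went from 3373 ± 431 CPM in control day 9 to 1163 ± 327 CPM in control day 14, and held 2598 ± 1072 and 1843 ± 289 CPM in affected dogs of day 9 and day 14. The chromosome 12 gene of the exon pattern ranked 3, and the chromosome 6 gene from 47425307 ranked 72 with 0.890.

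The same genes were followed within groups, as deviations from the mean of each group. There a gene on chromosome X (121330384 to 121335433) was most alike, with 0.971, and with 0.970 without MPS VII day 9 replicate 3. The chromosome 38 gene was next with 0.964 (0.924 without that library), and the chromosome 12 gene ranked 6 with 0.956. Lowest over all libraries were genes on chromosome 21 (13259793 to 13289237) with -0.93 and on chromosome 10 (46325244 to 46438559) with -0.92. Within groups the lowest were genes on chromosome 4 (4785866 to 4800958) and on chromosome 36 (16103207 to 16164356), both with -0.93. Without MPS VII day 9 replicate 3 these values were -0.85 and -0.88. Over all 20 libraries the chromosome 4 gene had a Pearson r of only -0.35. The chromosome 10 gene rose in controls with age, from 53.1 ± 4.65 to 101.2 ± 17.0 CPM (log2 fold change 0.93 ± 0.16), where COL2A1 fell.

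No gene of the table overlapped the span of COL2A1. Its nearest tested neighbours, 42726 bases before it (from 6669999) and 10586 bases after it (from 6798432), stood at 33.4 ± 3.87 and 99.3 ± 7.05 CPM in control day 9, far below COL2A1. With age in controls the gene before it did not pass the test (-0.26 ± 0.12; edgeR adjusted p = 0.0850), while the gene after it, on the opposite strand, fell (-0.38 ± 0.12; edgeR adjusted p = 0.0122). The latter was also higher in affected dogs than in controls at day 14 (0.44 ± 0.12; edgeR adjusted p = 0.00820). The neighbours had a Pearson r with COL2A1 of 0.193 and 0.654 over 20 libraries.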

How the data were processed

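The authors deposited a single table of raw counts, with 24580 Ensembl gene identifiers, their exon positions and summed exon length, and a column for each of the 20 libraries, per the file headers. Per the labels' protocols, RNA went into stranded, polyadenylated libraries read as paired 100-base reads, mapped to CanFam3.1 with Ensembl build 77. Tools listed in the submitters' processing notes, with no role stated, are STAR 2.4.0j, HTSeq, CASAVA 1.8.2, edgeR and bcl2fastq. Strand setting and treatment of reads shared by similar genes: not given in the sources used here. Even numbers made up 65.2% to 76.4% of counts under 200, as both mates of a pair would give, so fits were repeated on halved counts. Depth was 15772761 to 28028365 counts per library.

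Here, genes were filtered with filterByExpr (14550 kept), scaled by TMM and tested in edgeR 4.0.16 (R 4.3.3) with 1 mean per group over all 20 libraries, with Benjamini-Hochberg adjustment across the tested genes and calls at an adjusted p under 0.05. A standard error is the size of the log2 fold change over the root of the F statistic. Log2 CPM used a prior count of 2. Shares of counts were compared by exact permutation tests. Each library is taken as a separate dog from its label. The edgeR step was tested on simulated data. Alternatives were other scalings, no filter, halved counts, DESeq2 1.42.0, fewer libraries and other denominators.

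Genes named were COL2A1, its nearest tested neighbours, the gene with the second highest total, and the 2 most and 2 least alike in pattern, over libraries and within groups. The identifiers matched no symbol table used here (0 matched), so lists of marker genes and GUSB were not described. Genes of the 54-base exon pattern were added after their values were seen, as were those first or second in a library. Members and lists were chosen with earlier results of these data known. No sequences are shown, since none of this build were used here.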

Additional observations from a re-analysis of the deposited data

Results flagged for a closer look

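Of 88 groups of 5 libraries, 5 held a library far from the others by Dixon's criterion (gap over range above 0.71), where chance gives about 1 in 20. COL2A1 itself did not reach it: in affected day 9 its share had a gap of 0.694 of the range, and in control day 9, where replicate 1 was lowest, 0.695. In MPS VII day 9 replicate 3, a gene of the 54-base exon pattern on chromosome 11 from 68412813 was low, at 87.2 CPM, while the other 4 held 716 to 904. In the same library the chromosome 21 gene from 13259793 stood at 27.3 CPM (others 12.6 to 16.8) and the chromosome 4 gene from 4785866 at 88.5 CPM (others 42.3 to 51.1). Both were chosen as least alike to COL2A1 over these same libraries, and COL2A1 was lowest in this library. High values there are therefore favoured by the choice, and nothing is read from them. In affected day 14, replicate 1 held 863 CPM of the chromosome 11 gene (others 468 to 565), and replicate 5 held 35.7 CPM of the neighbour of COL2A1 from 6669999 (others 21.9 to 24.4).

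Among the 10 other genes of the exon pattern that pass the filter without any single group, the age change differed between genotypes in 1. This was by the edgeR interaction test, which 3.26% of all tested genes passed. The chromosome 6 gene from 61930848 rose by 2.56 ± 0.39 on the log2 scale in controls, and its value in affected dogs was -0.76 ± 0.41 (edgeR adjusted p = 0.181), a difference of -3.32 (edgeR adjusted p = 0.00402). For the chromosome 13 gene from 33735489 the fitted difference was -8.93 (edgeR adjusted p = 0.00120), but it passed the filter on low counts only through control day 14 and held 0 to 32 counts in every other library. Nothing is read from that call.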

How the results depend on the processing

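The fall of COL2A1 with age in controls kept its direction and its call under all 7 alternative fits (log2 fold changes -1.27 to -0.86) and without any single library (-1.46 to -1.09, highest edgeR adjusted p 0.0370). The genotype, MPS VII age and interaction results kept their direction and stayed short of the threshold throughout; without single libraries they ran from -0.57 to -0.13 (genotype, day 9), 0.29 to 0.65 (genotype, day 14), -0.67 to -0.25 (age, MPS VII) and 0.58 to 1.04 (interaction). Affected day 14 against control day 9 passed with DESeq2 (-0.81, adjusted p = 0.0408), with only its 10 libraries (-0.82) and without MPS VII day 9 replicate 3 (-0.80); without single libraries it ran from -0.95 to -0.69. The fall in share was short of the threshold per base of exon (-6.98 percentage points); the cause was not tested. Without single libraries it ran from -16.2 to -12.6, and the adjusted p rose to 0.0635 in 7 of 20 cases (each control of day 9, and replicates 1 and 4 of control day 14). The control ages still did not overlap in those cases. Without replicate 1 of control day 9, for example, the exact permutation p was 0.0159, against 0.00794 with all libraries. The other share differences ran from -8.23 to -1.79 (genotype, day 9), 2.70 to 6.29 (genotype, day 14) and -8.08 to -1.65 (age, MPS VII), none past the threshold. Genes called moved over 1.5 times for genotype at day 9 (1220; 711 with only its libraries), age in MPS VII (3297; 2073 by total counts, 1466 with only its libraries) and the interaction (474; 932 with DESeq2, 199 to 759 without single libraries). No paired analysis was possible because the labels give no litter and no replicate numbers.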
